A study of Mus musculus with 6 samples.

Results

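Interleukin-10, interleukin-6 and oncostatin M are cytokines whose receptors pass their signal to the transcription factor STAT3, and this account covers 10 mouse genes of that pathway: the ligands Il10, Il6 and Osm, the receptor chains Il10ra, Il10rb, Il6ra, Il6st and Osmr, the transcription factor gene Stat3, and the feedback inhibitor gene Socs3. They were chosen by name, as every probe whose platform annotation gave one of these symbols, which took 19 of 45281 probes and 10 of 19057 named genes on the array. Of these, 16 probes passed a filter on dim signals, and each of the 10 genes kept at least 1 probe, among 10506 genes tested. The samples were CD11b+Ly6G- cells, a sort for myeloid cells without neutrophils that the labels call cardiac macrophages, taken from hearts of ICR mice 3 days after the left anterior descending coronary artery was ligated. In the P1 group the infarct was made 1 day after birth and in the P14 group 14 days after birth. All arrays were of infarcted hearts, so effects of age and of the reaction to injury cannot be told apart. Each group had 3 arrays, the sex of the material is given as mixed, and no further treatment is recorded for either group. The labels do not say whether arrays came from separate animals or from pools, so p-values cover the spread among these 6 arrays and nothing more, and that spread may be technical. Within P14, replicate 3 correlated with replicates 1 and 2 at Pearson r = 0.989 and 0.990, less closely than those with each other (0.995). Within P1, replicates 1 and 2 correlated at 0.990 and the other pairs at 0.992. These values run across the genes tested, which are not independent replicates. The number of members called, and the values of some members, are also given without P14 replicate 3.

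Interleukin-10 binds a receptor made of the chains encoded by Il10ra and Il10rb, and in macrophages it restrains the production of inflammatory cytokines. Interleukin-6 binds the chain encoded by Il6ra, and oncostatin M in the mouse binds the one encoded by Osmr, and both then signal through the shared chain gp130, encoded by Il6st. Janus kinases on these receptors phosphorylate STAT3, which switches on Socs3, and the SOCS3 protein binds gp130 and limits the interleukin-6 signal while leaving that of interleukin-10 largely intact. In the adult mouse heart, oncostatin M made by macrophages is known to act on cardiomyocytes.

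Lower transcript levels of this pathway were measured at P1 in 5 of the 10 genes and higher levels in 0. Il10 was 1.97-fold lower in P1, Osm 1.35-fold, Il10rb 1.34-fold, Il6ra 1.21-fold and Socs3 1.16-fold, each at an adjusted p under 0.05 in limma's moderated test over all genes tested. Among all genes tested, 9.62% were lower in P1 and 10.4% higher, together 20.0%. The arrays of the 2 ages did not overlap for the same 5 members, against 38.5% of all genes. The median log2 fold change of the 10 members was -0.19, beside 0.01 over all genes tested. The 10 genes were chosen with earlier results of these data known. The counts and the median therefore describe these genes and are no test of the pathway. The calls of Il10 and Osm held without any 1 array, whereas the number of members called lower was 2 without P1 replicate 1 or P14 replicate 1, 3 without P1 replicate 2 or P14 replicate 2, and 4 without P1 replicate 3 or P14 replicate 3. Probe intensities are the authors' normalized values with background left in, so folds are understated, most for dim probes.

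**Figure D1:**
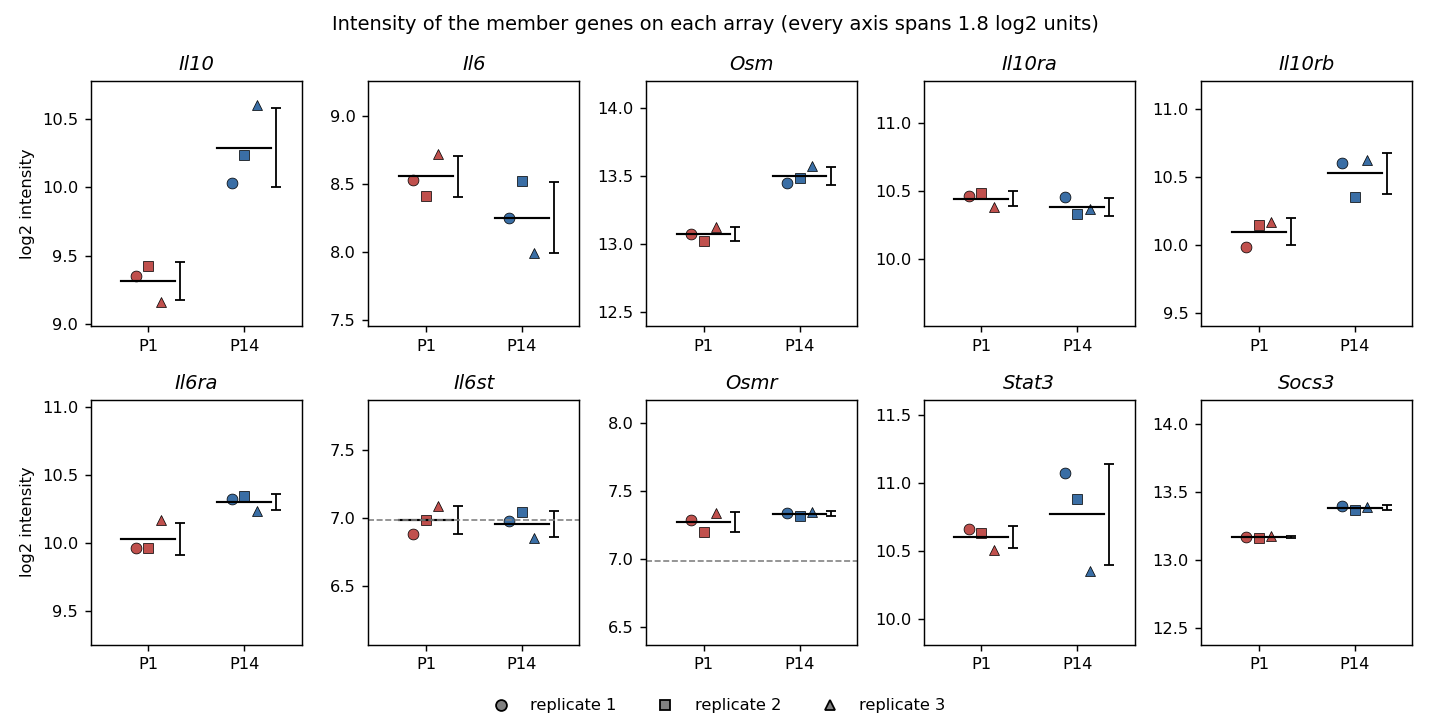
Log2 intensity of the tested probe of each of the 10 genes on each array (symbols give the replicate number), with the group mean as a line, the SD as a bar (n = 3 arrays) and the floor for dim signals as a dashed line. Il10, Osm, Il10rb, Il6ra and Socs3 have all P14 arrays above all P1 arrays, Stat3 spreads widely in P14, and Il6st lies around the floor.

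Among the ligands, Il10 had the largest difference of the 10 genes. Its single probe read 654, 688 and 570.5 on P1 replicates 1, 2 and 3, and 1048, 1207 and 1561 on P14 replicates 1, 2 and 3. Every P14 array was above every P1 array, and P14 replicate 3 was the highest. The log2 fold change, P1 minus P14, was -0.98 ± 0.145 (SE, n = 3 per group, adjusted p = 0.00505), with a 95% confidence interval from -1.32 to -0.65. Without single arrays it ranged from -1.11 to -0.82, the latter without P14 replicate 3, and the highest adjusted p was 0.0220, without P1 replicate 3.

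Osm, which encodes oncostatin M, was read by 2 probes that moved the same way. Probe ILMN_2919411, which stands for the gene, read 8618, 8298 and 8923 in P1 and 11153, 11466 and 12198 in P14. The P1 arrays lay close together and all below P14, and the log2 fold change was -0.43 ± 0.0688 (adjusted p = 0.00647). Probe ILMN_2543107 read 439, 510.3 and 478 in P1 and 760.0, 844 and 698 in P14, again with no overlap. Its log2 fold change was -0.69 ± 0.0912 (adjusted p = 0.00426 over all kept probes). Of the 16 kept probes of the 10 genes, 6 were lower and 0 higher in P1, against 8.25% lower and 8.22% higher (together 16.5%) of all kept probes. The ages did not overlap for 8 of the 16, against 35.8% of all kept probes.

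Il6 did not pass the test. Its probe read 371, 342 and 422 in P1 and 304, 368 and 255 in P14. The ages overlapped, since P14 replicate 2 lay above P1 replicate 2. The log2 fold change was 0.30 ± 0.138 (adjusted p = 0.165), with a 95% confidence interval from -0.02 to 0.62, which runs from near 0 to a P1 level 1.54-fold that of P14.

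Sequences before the annotated start were at hand for the genes of interleukin-6 and of both chains of its receptor, and are shown as the regulatory sequence of that ligand and receptor system. Each is the 250 bases before the gene start in RefSeq on GRCm38.p6, written 5′ to 3′ on the gene's strand. Il6 lies at chr5:30012864-30013113 on the plus strand, Il6ra at chr3:89913197-89913446 on the minus strand and Il6st at chr13:112463820-112464069 on the plus strand. Capitals mark a match to GGNNTTTCC, a core of the site of NF-kappaB, the factor known to drive Il6 in activated macrophages.
Il6: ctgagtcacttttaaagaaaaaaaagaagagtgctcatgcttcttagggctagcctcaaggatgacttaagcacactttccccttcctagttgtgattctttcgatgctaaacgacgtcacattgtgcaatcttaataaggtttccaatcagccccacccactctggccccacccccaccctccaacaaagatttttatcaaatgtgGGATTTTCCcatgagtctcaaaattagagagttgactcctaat
Il6ra: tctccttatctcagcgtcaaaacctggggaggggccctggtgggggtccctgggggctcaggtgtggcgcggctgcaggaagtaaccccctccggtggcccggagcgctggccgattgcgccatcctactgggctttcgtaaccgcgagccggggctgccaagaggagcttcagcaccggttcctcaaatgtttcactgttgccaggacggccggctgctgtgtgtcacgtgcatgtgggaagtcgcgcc
Il6st: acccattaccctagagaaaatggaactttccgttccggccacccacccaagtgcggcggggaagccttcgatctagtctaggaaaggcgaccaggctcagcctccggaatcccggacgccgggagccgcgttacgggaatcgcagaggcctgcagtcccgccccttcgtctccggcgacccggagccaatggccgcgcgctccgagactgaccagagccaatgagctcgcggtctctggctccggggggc
The Il6 window held GGATTTTCC from 43 to 35 bases before the start, and the windows of Il6ra and Il6st held no match on either strand. Matches to GGNNTTTCC were present in 4.83% of 19827 such windows. The letters TTCNNNGAA, a common form of the STAT site that reads the same on both strands, were in 7.63% of those windows and in 0 of these 3. The motifs are different letters with no overlap in these windows, and a match is a description of sequence, not a bound site.

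Of the interleukin-10 receptor chains, Il10rb passed the test and Il10ra did not. Il10rb, whose product also serves the receptors of interleukin-22 and of the lambda interferons, read 1014, 1131 and 1149 in P1 and 1550.4, 1309.6 and 1577 in P14 with probe ILMN_1250260. All P14 arrays were above all P1 arrays, and the log2 fold change was -0.43 ± 0.0941 (adjusted p = 0.0186). A further probe, ILMN_1256085, read 521, 555 and 466 in P1 and 701, 650.3 and 730.4 in P14. It gave nearly the same log2 fold change, -0.44 ± 0.0844 (adjusted p = 0.0144 over all kept probes). The call of the gene was lost without P1 replicate 1 (adjusted p = 0.0518) and without P14 replicate 1 (adjusted p = 0.0634).

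Il10ra, the chain that binds interleukin-10 itself, read 1413, 1436 and 1333 in P1 and 1404, 1288 and 1320.3 in P14. The ages overlapped, and the log2 fold change was 0.06 ± 0.0690 (adjusted p = 0.602). Its 95% confidence interval, from -0.10 to 0.22, covers changes up to 1.16-fold in favour of P1. Whether Il10ra and Il10rb differed from each other in their difference between the groups was not tested.

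Il6ra, the chain that binds interleukin-6, had the call nearest to the threshold. Probe ILMN_1255743 read 994, 994 and 1147 in P1 and 1281, 1301 and 1203 in P14. The groups did not overlap, but P1 replicate 3 and P14 replicate 3 lay closer than the SD within P1 (88.2). The log2 fold change was -0.27 ± 0.0807 (adjusted p = 0.0486), and of the 6 fits that each left out 1 array it passed in 1, that without P1 replicate 3. Over all kept probes the adjusted p of the same probe was 0.0504. The other probes of Il6ra gave log2 fold changes of -0.33 ± 0.104 (ILMN_1216057, adjusted p = 0.0687 over all kept probes) and -0.18 ± 0.0922 (ILMN_2706430, adjusted p = 0.237). All 3 probes therefore had lower means in P1, and none passed in the fit over probes.

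Il6st, the gene of gp130, and Osmr were dim. Il6st read 118, 126.5 and 136 in P1 and 126, 132 and 115 in P14 with probe ILMN_2608184, around the floor of 126.5 that separates signal from background. It exceeded the floor on 2 P1 arrays and 1 P14 array, and its log2 fold change, 0.03 ± 0.0833 (adjusted p = 0.843), changed sign without P1 replicate 3 or P14 replicate 3 (-0.02 in each case). The second Il6st probe stayed between 106 and 110.5, below the floor on every array. A difference in Il6st was therefore not detectable with these probes, and gp130 transcript levels in these cells cannot be read from them.

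Osmr had 1 of its 3 probes above the floor. Probe ILMN_2623280 read 156, 147 and 161 in P1 and 162, 159 and 163 in P14. The groups overlapped, and the log2 fold change was -0.06 ± 0.0665 (adjusted p = 0.574). The other Osmr probes lay between 108 and 120.1 on all arrays, below the floor. For Il6 and Osmr, genes that fibroblasts also express, the fibroblast markers are given here: 3 of 9 tested markers were higher in P1 and 0 lower, led by Col1a1, a chain of type I collagen (log2 fold change 1.47), and their summed intensity was 3597 to 5988 on P1 arrays and 3180.5 to 3650.2 on P14 arrays. All 9 were above the floor on every array, and their part in the Il6 and Osmr values was not tested.

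**Figure D2:**
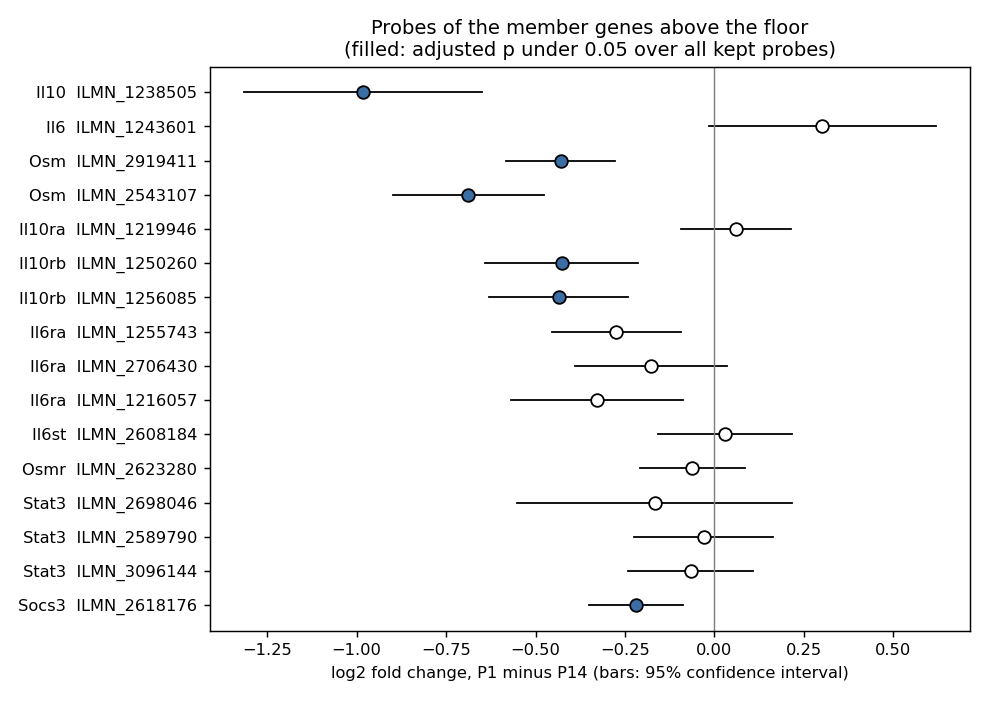
Log2 fold change, P1 minus P14, of the 16 kept probes of the 10 genes with 95% confidence intervals, filled where the adjusted p over all kept probes was under 0.05. Both probes of Osm and of Il10rb lie to the left of 0 with intervals that exclude it, and the intervals of the 3 Stat3 probes include 0.

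Stat3 itself, the point at which the 3 cytokines converge, was read by 3 probes, none of which passed. Probe ILMN_2698046 read 1622, 1592 and 1460.3 in P1 and 2158, 1888 and 1310.0 in P14. P14 replicates 1 and 2 were above every P1 array, while P14 replicate 3 was the lowest of all 6. The log2 fold change was -0.17 ± 0.167 (adjusted p = 0.541), with a 95% confidence interval from -0.55 to 0.22. Without P14 replicate 3 it was -0.37 and passed (adjusted p = 0.0332), and without P14 replicate 1 it was -0.01 (adjusted p = 0.962), so its value rested on single P14 arrays. The other probes gave -0.03 ± 0.0838 (ILMN_2589790) and -0.07 ± 0.0754 (ILMN_3096144, annotated to another Stat3 transcript), with adjusted p of 0.852 and 0.618 over all kept probes.

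Socs3, the feedback inhibitor, showed a small difference between tight groups. It read 9195, 9159.8 and 9252 in P1 and 10798, 10568 and 10761 in P14. The SD on the log2 scale was 0.0073 in P1 and 0.0167 in P14 (n = 3), and the gap between the groups was several times that spread. The log2 fold change was -0.22 ± 0.0600 (adjusted p = 0.0386), the standard error being moderated toward that of other genes. The fold change stayed between -0.23 and -0.21 without single arrays, but the call was lost without each of the 6, with adjusted p from 0.0747 to 0.106, and after normexp background correction (adjusted p = 0.169).

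**Figure D3:**
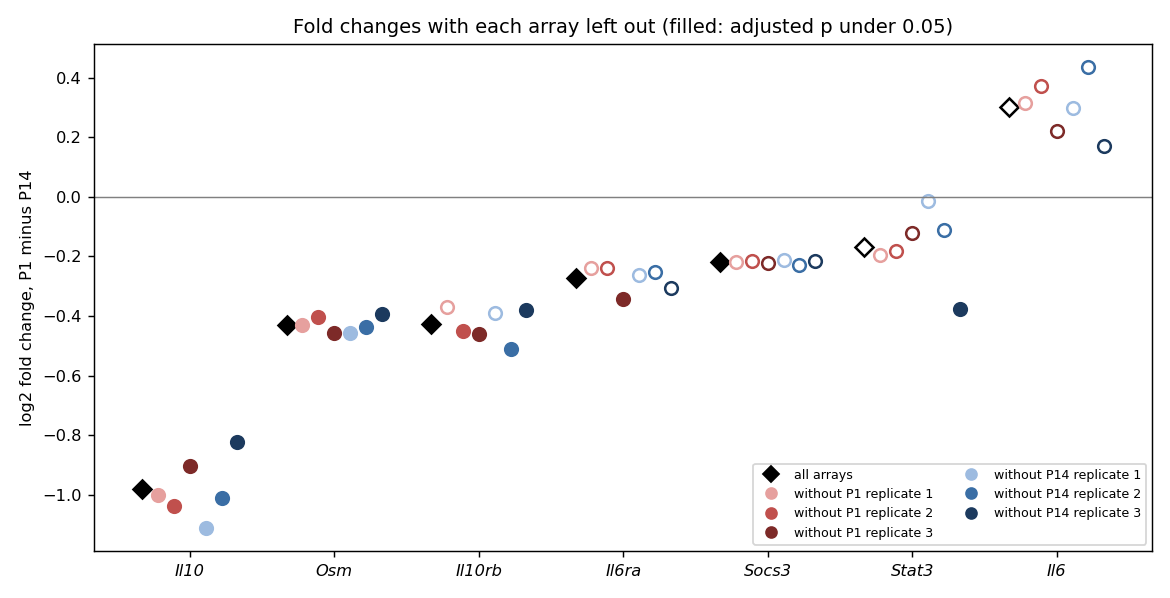
Log2 fold change, P1 minus P14, of 7 of the 10 genes with all arrays (diamond) and with each array left out (circles), filled where the adjusted p was under 0.05. Il10 and Osm stay filled throughout, Socs3 holds its size but loses its call, and Stat3 is filled without P14 replicate 3 alone.

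The array material is a mixture of sorted cells, in which fewer cells of a type and less RNA per cell cannot be told apart. All 8 of the tested gate and pan-macrophage genes, among them Itgam (CD11b) and Adgre1, were above the floor on every array, and Ly6g was not analysed here. Of these 8, 1 was higher in P1, the growth factor receptor gene Csf1r (0.82 on the log2 scale, adjusted p = 0.00237), and 1 lower, the leukocyte antigen gene Ptprc (-0.42, adjusted p = 0.0255), with sums of 37543 to 38916 in P1 and 34571 to 40001 in P14. With single arrays left out, the Ptprc call was kept in 1 of 6 fits, that without P1 replicate 3, and its adjusted p was at most 0.0739. Of 8 tested monocyte markers 6 were lower and 1 higher in P1, with a summed intensity of 12145 to 14281 on P1 arrays and 11870 to 19032 on P14 arrays. Of 12 tested resident macrophage markers 4 were higher and 0 lower, with sums of 49685 to 56047 in P1 and 26322 to 37068 in P14. Granulocyte markers were higher in 10 of 12 and lower in 1 (sums of 16996 to 24363 against 9637 to 13508), with Mpo and Ngp below the floor on all P14 arrays, and cardiomyocyte markers were higher in 5 of 8 (4924 to 11234 against 2300 to 2583). Of 4 tested dendritic cell markers 1, Siglech, was lower and 0 higher, with sums over all 4 of 585 to 624 in P1 and 700 to 760.0 in P14, and of 9 endothelial and 3 lymphocyte markers tested 0 and 1 were higher. The part of any of these in the values of the 10 genes was not tested.

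Further genes of the pathway were taken from 6 lists, in which 74 of 95 genes were tested. Of these, 12 were higher and 9 lower in P1, and the median log2 fold change was -0.03. The shares over all genes tested, 10.4% higher and 9.62% lower, are those to set beside the counts of each list below. Leaving out P1 replicate 3 brought the number higher to 5, and leaving out P14 replicate 1 brought it to 6. Of 6 related ligands tested, Ebi3, a subunit of interleukin-27, was the one that rose, with readings of 1080.4, 1313 and 1166 in P1 and 937, 995 and 930.0 in P14. Its log2 fold change, 0.31 ± 0.0860 (adjusted p = 0.0399), passed in 1 of the 6 fits that each left out 1 array. Il27, its partner, gave 0.02 and Lif, the leukemia inhibitory factor, 0.05. Of 8 related receptors, Ifngr1, which binds interferon gamma, rose by 0.56 ± 0.0976 (adjusted p = 0.00827) with all P1 arrays above all P14 arrays, and 7 did not pass.

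Among kinases and other STAT genes, 2 were higher and 1 lower, beside the shares of 10.4% and 9.62% over all genes tested. Of 8 tested, Tyk2, the kinase that partners the Il10rb chain, was higher in P1 by 0.39 ± 0.0722 (adjusted p = 0.0108), with readings of 1002, 926 and 989.7 in P1 against 788, 707 and 739 in P14. Jak3, which serves receptors with the common gamma chain, was higher by 0.34 (adjusted p = 0.0254), a call kept in 2 of those 6 fits. Stat6, the factor that carries interleukin-4 signals, was lower (-0.64 ± 0.0977 on the log2 scale, adjusted p = 0.00549), at 388, 317 and 307 in P1 and 506, 540.3 and 518 in P14. The kinase genes Jak1 and Jak2, which gp130 and its partners use, gave 0.07 and -0.07 and did not pass.

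Of the negative regulators, 3 of 16 were higher and 1 lower, against 10.4% higher and 9.62% lower of all genes tested. Ptpn1, a phosphatase that removes phosphate from Janus kinases, read 878, 899 and 934 in P1 and 1511, 1492 and 1577 in P14 (log2 fold change -0.76 ± 0.0646, adjusted p = 0.00137). Pias3, a protein inhibitor of STAT3, was higher by 0.64 ± 0.0977 (adjusted p = 0.00533), at 443, 381 and 425 against 300.3, 248 and 253. Socs2, a feedback inhibitor of growth hormone signalling, was higher by 0.64 ± 0.119 (adjusted p = 0.0107), at 377, 479 and 464 against 279.9, 316 and 251. Pias4, a relative of Pias3, was higher by 0.39 (adjusted p = 0.0113), but with the mean of its kept probes the log2 fold change was -0.02 (adjusted p = 0.850).

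Among 28 tested genes known to respond to interleukin-10 or to STAT3, 6 were lower and 3 higher in P1, and the median log2 fold change was -0.17. Of all genes tested, 9.62% were lower and 10.4% higher. Vegfa, the angiogenic growth factor, read 1947, 1887 and 1828 in P1 and 3574, 3008 and 3593 in P14 (log2 fold change -0.84 ± 0.0864, adjusted p = 0.00174). Fgl2, a fibrinogen-like protein, read 174, 179 and 186 against 319.8, 309 and 262 (-0.72 ± 0.0893, adjusted p = 0.00282). Sbno2, a transcriptional co-regulator induced by interleukin-10 in macrophages, was lower (-0.46 ± 0.0749, adjusted p = 0.00668), and so was Mcl1, a survival factor of the BCL2 family (-0.41 ± 0.0740, adjusted p = 0.00993). The 3 genes called higher were Icam1 (0.36 on the log2 scale), Junb (0.34) and Zfp36 (0.30). Each had an adjusted p under 0.05 and all P1 arrays above all P14 arrays. Called response genes therefore lay on both sides. Bcl3 (0.12) and Il1rn (-0.11), a co-regulator of NF-kappaB and the interleukin-1 receptor antagonist, did not pass. Of 8 tested regulators of Il10 transcription, Crem, a cyclic AMP response factor, was lower (-0.53 ± 0.0785, adjusted p = 0.00511), while Maf, a factor that activates Il10 in macrophages, was higher by 0.39 ± 0.110 (adjusted p = 0.0414) and Sp1 by 0.33 ± 0.0925 (adjusted p = 0.0412). With single arrays left out, the Maf call was kept in 2 of 6 fits and that of Sp1 in 1.

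**Figure D4:**
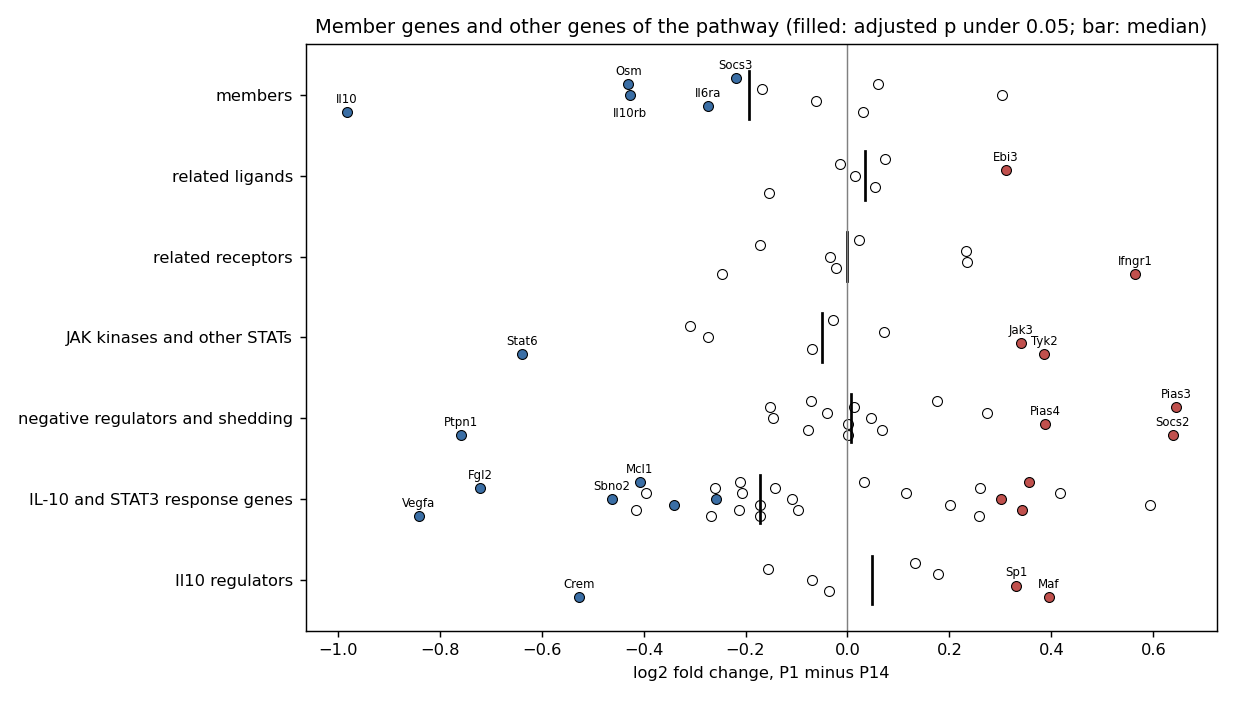
Log2 fold change, P1 minus P14, of the 10 members and of the tested genes of 6 further pathway lists, filled where the adjusted p was under 0.05, with the list median as a bar. The called members all lie below 0, while each further list with more than 1 called gene has called genes on both sides.

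The array profiles nearest to the 3 members with the largest called differences were found by the root mean square difference of log2 intensity over the 6 arrays, after subtracting each gene's mean. Nearest to Il10 were H2-K1, an MHC class I heavy chain (0.11), and Aktip, which encodes an AKT-interacting protein (0.12), where the spread of Il10 about its own mean was 0.52 by the same measure. Nearest to Osm were Emc4 and Armc6 (0.0257 and 0.0265, against a spread of 0.22). Nearest to Il10rb were Slc66a1, a lysosomal amino acid transporter, and Mrpl36, a mitochondrial ribosomal protein (0.0271 and 0.0422, against 0.24). These describe 6 arrays in 2 groups, where any gene with a difference of like size between the ages lies near.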

How the data were processed

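RNA of 6 samples was hybridised to Illumina mouse arrays. The values are linear intensities that the authors deposited, 1 column per sample. Their sorted values differed between arrays by at most 0.471%, so the arrays had nearly equal distributions, as quantile normalization gives. The sources used here do not name the software, so the method was inferred from the values. A scanner table of 24 columns was not used, because its column names match no sample label.

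Probes took symbols from the platform annotation: 34885 had 1 symbol, 18 several and 10378 none. For 34807, RefSeq genes of GRCm38.p6 held the Entrez identifier, and 0 symbols changed. The floor was 3 SDs above the most frequent log2 intensity (112), that is 126.5, and probes above it on at least 3 arrays were kept (19106). Per array 18917 to 18937 probes exceeded it. Each gene was tested with its kept probe of highest mean. Log2 intensities were fitted with lmFit and eBayes of limma 3.58.1 (R 4.3.3) on group alone, two-sided, with Benjamini-Hochberg adjustment over all 10506 genes, or over all kept probes where so stated, at a threshold of 0.05. The fit was tested on simulated data.

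The 10 genes were chosen with earlier results of these data known, and so were the further lists. Named genes are all members, up to 4 genes of each list with the largest called change and no overlap between groups (otherwise the 2 brightest), and the 2 nearest profiles of 3 members. Named outside this rule, after their values were seen, were Il27, Lif, Jak1, Jak2, Bcl3, Il1rn, Icam1, Junb, Zfp36, Itgam, Adgre1 and Ngp. Alternatives covered the filter, probe rule, variance model, array weights, replicate block, background, normalization and each array left out, with probe choice kept. The number of arrays limits the precision.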

Additional observations from a re-analysis of the deposited data

How the results depend on the processing

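Il10 and Osm were lower in P1 past the threshold under all 9 settings that kept the 6 arrays (log2 fold changes from -1.13 to -0.96 and from -0.56 to -0.41), and Il10rb under 8 of the 9 (adjusted p = 0.0591 with the background mode subtracted). Il6ra passed under 3 and Socs3 under 6, and Il6, Il10ra, Il6st, Osmr and Stat3 passed under none of those run. The number of members lower in P1 (5) was 3 with the replicate number as a block, 3 after normexp, 2 with the background mode subtracted, and 2 to 4 without single arrays. With the background mode subtracted, 3 member probes were lower (6 in the main setting), 6 further pathway genes were higher (12) and 650 of all genes were lower (1011). Without single arrays 4 to 6 member probes were lower, 5 to 12 pathway genes were higher and 7 to 10 lower, and of all genes 519 to 921 were higher (1094) and 535 to 893 lower. The cause of these changes was not tested, other than that leaving out an array leaves fewer samples. Direction changed for Il6st and its probe ILMN_2608184 (-0.0231 to 0.0811 without single arrays), the Stat3 probe ILMN_2589790 (-0.103 to 0.0228), Pias4 with the mean of its probes (-0.0199), and the endothelial markers Egfl7 (-0.0376 to 0.455) and Esam (-0.0660 to 0.520). Replicate numbers were not taken as pairs: deviations of same-numbered P1 and P14 arrays from their group means correlated at 0.16, 0.07 and 0.13 over genes. Each P1 array correlated best with the P14 array of its own number. These correlations are small, and they are not independent, because deviations from a group mean cancel within the group. They cannot decide whether the arrays were paired, and the design does not say so. With the replicate block, 1117 genes were higher and 1064 lower, Il10, Osm and Il10rb kept their calls, and Il6ra (adjusted p = 0.0758) and Socs3 (0.0695) did not. Signal over background limits Il6st and Osmr most.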

Other observations

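P14 replicate 3 stood at an extreme of its group for several of the 10 genes. It had the highest Il10 intensity of the 6 arrays (1561) and the highest Osm intensity (12198). It also had the lowest Il6 intensity (255) and the lowest intensity of Stat3 probe ILMN_2698046 (1310.0). In a group of 3 arrays such positions are common and do not mark an array as unusual. Within P14, replicate 2 was highest for Il6 (368) and Il6ra (1301) and lowest for Il10rb (1309.6) and Socs3 (10568). The mean log2 deviation of the tested monocyte markers was -0.01 on P14 replicate 3 and 0.57 and 0.41 on P14 replicates 1 and 2. Any link between these marker values and the readings of the 10 genes was not tested.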
